A study of Mus musculus with 2 samples.

Results

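Interferon gamma, its receptor and its signalling genes were followed in single-cell RNA of CD45+ cells of subcutaneous tumours grown from Colon26 (mouse colon carcinoma) cells. The set was chosen by name and holds 9 of the 22836 genes of the deposited table: Ifng, the receptor chains Ifngr1 and Ifngr2, and the response genes Irf1, Socs1, Gbp2, Gbp4, Igtp and Iigp1. The 14 hosts were wild-type BALB/c mice of unstated age, and tumours were taken on day 10. The minP1_PDL1 mice (n = 4) received both agents, the PDL1 mice (n = 3) the anti-PD-L1 antibody 10F.9G2 (200 µg into the peritoneum on days 4 and 8), the minP1 mice (n = 4) an HMGN1-derived peptide (0.08 µg into the peritoneum on day 9), and the Control mice (n = 3) neither. All carried the same tumour line, each mouse was 1 sample, and tumour and dead cells had been reduced on Percoll before capture. The labels call the cells intestinal, although the tumours were subcutaneous. HMGN1 is a nucleosome-binding protein that also acts as an alarmin on dendritic cells, and anti-PD-L1 blocks the ligand of the inhibitory receptor PD-1. The comparisons ask how the peptide, the antibody and their combination change the tumour's leukocytes.

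Interferon gamma is the only type II interferon. It is made mainly by NK cells and by activated CD8 and type 1 helper T cells, and it binds a receptor of IFNGR1, which holds the ligand, and IFNGR2, which is needed for the signal. The kinases JAK1 and JAK2 then pass the signal on to the nucleus, where it acts through GAS elements in the promoters of target genes. Irf1 encodes a transcription factor that is an early target and carries the response on to genes with interferon-stimulated response elements (ISRE). Socs1 encodes an inhibitor of the JAK kinases that ends the signal, Gbp2 and Gbp4 encode guanylate-binding proteins, and Igtp and Iigp1 encode immunity-related GTPases, both families being large GTPases that defend cells against intracellular pathogens. In tumours the pathway is known for raising antigen presentation and PD-L1.

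RefSeq promoter windows (250 bases before to 50 after the start, GRCm38.p6) matched 7 of the 9 genes. The 4 windows of response genes below are shown because they hold a match to the GAS element, searched as TTCNNNGAA (its own reverse complement), or to the element bound by IRF proteins, searched as GAAA, any 2 bases and GAAA on either strand (ISRE). Capitals mark the matches, and each sequence runs 5′ to 3′ on the strand of the gene. The windows are chr11:53769764-53770063 (plus strand) for Irf1, chr11:58199306-58199605 (plus) for Igtp, chr3:142620413-142620712 (plus) for Gbp2 and chr16:10785487-10785786 (minus) for Socs1.
Irf1: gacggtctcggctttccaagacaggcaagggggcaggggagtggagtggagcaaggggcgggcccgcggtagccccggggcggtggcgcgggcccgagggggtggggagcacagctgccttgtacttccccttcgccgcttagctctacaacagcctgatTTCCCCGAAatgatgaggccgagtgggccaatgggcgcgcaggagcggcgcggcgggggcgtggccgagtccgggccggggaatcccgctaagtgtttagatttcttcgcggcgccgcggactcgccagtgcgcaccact
Igtp: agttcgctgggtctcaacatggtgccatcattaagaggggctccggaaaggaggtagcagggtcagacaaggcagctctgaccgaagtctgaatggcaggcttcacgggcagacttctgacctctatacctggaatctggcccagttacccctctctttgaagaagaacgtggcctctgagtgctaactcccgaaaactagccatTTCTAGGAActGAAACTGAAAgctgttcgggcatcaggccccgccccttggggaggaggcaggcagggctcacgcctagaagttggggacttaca
Gbp2: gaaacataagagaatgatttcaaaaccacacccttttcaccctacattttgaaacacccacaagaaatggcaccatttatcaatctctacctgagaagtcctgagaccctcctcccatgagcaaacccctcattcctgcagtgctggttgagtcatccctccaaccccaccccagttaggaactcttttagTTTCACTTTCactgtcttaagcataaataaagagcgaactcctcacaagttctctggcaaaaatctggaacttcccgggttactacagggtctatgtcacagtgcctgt
Socs1: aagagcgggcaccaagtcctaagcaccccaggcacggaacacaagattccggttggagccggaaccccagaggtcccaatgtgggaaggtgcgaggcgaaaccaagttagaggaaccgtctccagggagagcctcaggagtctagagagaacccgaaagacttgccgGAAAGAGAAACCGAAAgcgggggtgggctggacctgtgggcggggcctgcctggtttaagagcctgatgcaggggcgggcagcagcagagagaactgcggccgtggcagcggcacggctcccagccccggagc

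The Irf1 window holds 1 GAS match, TTCCCCGAA, that begins 90 bases before the start. The Igtp window holds both kinds, with TTCTAGGAA beginning 45 bases and GAAACTGAAA 34 bases before the start. The Gbp2 window holds TTTCACTTTC, an ISRE match on the other strand, and the Socs1 window holds GAAAGAGAAA and GAAACCGAAA, which overlap. The Ifng window holds a GAS match at its far end, those of Ifngr1 and Ifngr2 hold none, and a second Irf1 start has a window without a match. Of 32851 windows of the same length, 8.30% hold a GAS match, 3.44% an ISRE match and 11.3% either.

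All 9 genes are protein-coding in GENCODE M21 (GRCm38). Ifng lies on chromosome 10 at 118441046-118445892 and Ifngr1 on the same chromosome at 19591949-19610229. Ifngr2 (91547072-91565623) and Socs1 (10782240-10785536, minus strand) lie on chromosome 16, and Irf1 (53770014-53778374) and Igtp (58199556-58207591) on chromosome 11. Gbp2 is on chromosome 3 at 142620602-142638008, Gbp4 on chromosome 5 at 105115767-105139586 (minus strand) and Iigp1 on chromosome 18 at 60376027-60392634. Gbp2, Gbp4, Igtp and Iigp1 have close relatives, and how reads shared between relatives were assigned is not given in the sources used here, so their counts are uncertain.

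After a filter on mitochondrial reads 7732 cells were kept (466 to 724 per mouse), with 26007834 to 51230461 reads per mouse and a median of 30312 to 57305 reads per cell, and no barcode number was shared by mice. They were clustered without the 9 genes and named from marker genes, which gave 590 neutrophils, 505 dendritic cells, 2459 monocytes or macrophages, 1779 T cells and 1385 NK cells. A further 547 cells had markers of stromal or tumour cells, and Ptprc, which encodes CD45, was low in the main cluster of them (36.0 CPM in cells without and 124 CPM in cells with an Ifng read, against 846 to 2904 CPM in the clusters of T cells, NK cells, macrophages, monocytes and neutrophils). Levels are in CPM, the reads of a gene per 1000000 reads of the class in a mouse, and mice are the replicates (mean ± SD, n = 14 unless stated). In sums over a class, fewer expressing cells and less RNA per cell cannot be told apart.

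Ifng was highest in T cells, followed by NK cells, and lowest in stromal or tumour cells. It averaged 157 ± 63.6 CPM in NK cells (84.0 to 351) and 285 ± 148 CPM in T cells (88.7 to 578). The level of NK cells minus that of T cells was -0.74 ± 1.11 (SD) on the log2(CPM + 1) scale, and T cells were higher in 10 of 14 mice (exact sign-flip test, adjusted p = 0.0462). That call was lost when any 1 of 10 mice was left out (Control mice 1 to 3, minP1 mice 2 to 4, PDL1 mice 2 and 3, minP1_PDL1 mice 1 and 2, adjusted p of 0.0509 to 0.0924).

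NK cells were above monocytes and macrophages (74.0 ± 30.2 CPM) in all 14 mice (exact sign-flip test, adjusted p = 0.000305). Monocytes and macrophages, neutrophils (105 ± 167 CPM) and dendritic cells (55.1 ± 37.8 CPM) did not differ from their neighbours in the order beyond the spread of mice (adjusted p of 0.369 and 0.704 by the same test). Dendritic cells were above stromal or tumour cells (4.32 ± 9.37 CPM) in all 14 mice (adjusted p = 0.000305). The neutrophil mean rests on Control mouse 2, at 655 CPM, and the other 13 mice lay between 2.16 and 220 CPM.

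**Figure D1:**
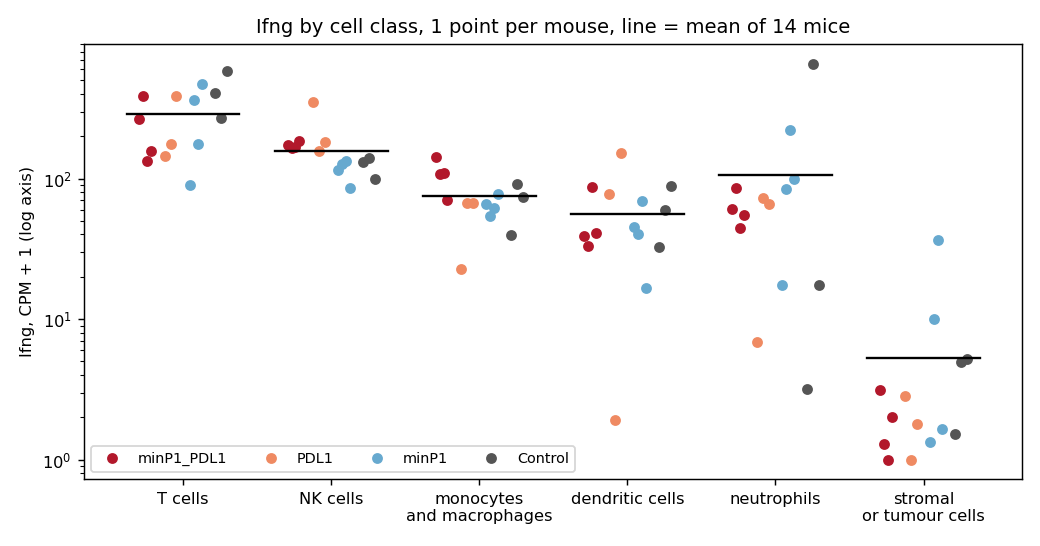
Ifng level (CPM + 1, log axis) in 6 cell classes, 1 point per mouse coloured by group, with a line at the mean of the 14 mice. T cells (mean 285 CPM) and NK cells (157 CPM) are the highest classes and stromal or tumour cells (4.32 CPM) the lowest.

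A single cluster of T cells carried most of the T cell Ifng. This cluster of 516 cells was led by Cd8a, which encodes a CD8 chain, and Pdcd1, which encodes PD-1, and held Ifng at 543 ± 274 CPM per mouse (206 to 1084). After each cell had been thinned to 10000 reads, 41.2% of its cells had an Ifng read, and it held 75.4% of the T cells with an Ifng read but 30.4% of the T cells. Regulatory T-like cells, led by Foxp3, stood at 61.1 ± 70.4 CPM and T cells with Tcf7 and Il7r, genes of naive and memory cells, at 54.4 ± 45.0 CPM. T cells with Il17a and the gamma delta chain gene Trdc stood at 13.7 ± 25.9 CPM over the mice with at least 10 such cells. Among NK cells, those with Gzma stood at 179 ± 73.1 CPM and those with Gzmc to Gzmf at 80.3 ± 48.1 CPM over the mice with at least 10 such cells. The share of T cells in the Cd8a and Pdcd1 cluster was 28.7 ± 5.9% in minP1_PDL1 mice, 31.3 ± 8.4% in PDL1 mice, 28.9 ± 8.5% in minP1 mice and 27.9 ± 2.6% in Control mice.

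Few cells held many of the reads. In T cells, the top cell of each mouse held 15.8% to 52.0% of the class's Ifng reads. In NK cells of PDL1 mouse 1, 1 cell held 390 of 822 Ifng reads (47.4%), and in monocytes and macrophages of minP1_PDL1 mouse 1, 1 cell held 1313 of 2235 (58.7%). In NK cells thinned to 10000 reads, 23.3 ± 3.77% of cells had an Ifng read, against 16.6 ± 4.95% of T cells, 13.1 ± 3.22% of monocytes and macrophages and 1.00 ± 1.74% of stromal or tumour cells. The share of NK cells was thus above that of T cells although the CPM was below it, and no order of expression is read from the shares. Without thinning, the shares were 27.0%, 18.7%, 22.5% and 8.09%, at median depths of 26336, 20632, 74935 and 143140 reads per cell.

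Reads of Ifng in myeloid cells came with other lymphocyte reads. Monocytes and macrophages held 35.0 ± 13.5% of a mouse's Ifng reads, NK cells 16.8 ± 7.8% and T cells 32.8 ± 15.7%. Of 1341 macrophages with Arg1 and C1q genes, the 443 with an Ifng read had 5704 CPM over 26 markers of T and NK cells and the 898 without had 3413 CPM. Cd8a stood at 135 CPM in the 443 cells and 46.7 CPM in the 898, Ncr1, a receptor gene of NK cells, at 160 and 94.3 CPM, and Nkg7, a cytotoxic granule gene, at 640 and 303.5 CPM. Of the 443, 84.0% had a doublet score over 0.5 and the median cell held 148740 reads, against 55.1% and 100710 reads in the 898. Without cells of such a score, T cells held 55.2% of all Ifng reads, NK cells 23.4% and monocytes and macrophages 11.4%, and the level was 38.2 ± 38.9 CPM in monocytes and macrophages, 35.9 ± 61.3 CPM in neutrophils and 13.8 ± 24.7 CPM in dendritic cells, while T cells (291 ± 152 CPM) and NK cells (153 ± 39.2 CPM) kept their level within the spread of mice. The part of doublets, free RNA or depth in the myeloid Ifng reads was not tested further.

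The receptor chains differed in their order over the classes, with NK cells highest in Ifngr1 and lowest in Ifngr2. Ifngr1 was ordered from high to low as NK cells (981 ± 123 CPM), T cells (787 ± 141), neutrophils (489 ± 84.3), monocytes and macrophages (367 ± 44.5), dendritic cells (271 ± 47.1) and stromal or tumour cells (57.0 ± 20.8), and each class differed from the next (exact sign-flip tests, adjusted p of 0.000203 to 0.00342). Without cells of a doublet score over 0.5, Ifngr1 was 300.9 ± 197 CPM in neutrophils and 263 ± 52.4 CPM in monocytes and macrophages. In dendritic cells it was then 167 ± 57.6 CPM, and the steps between classes were not tested in these cells. Ifngr2 was ordered from high to low as monocytes and macrophages (66.0 ± 8.45 CPM), dendritic cells (55.0), neutrophils (40.3), stromal or tumour cells (30.2), T cells (20.0) and NK cells (6.25 ± 6.28). Neutrophils and stromal or tumour cells did not differ in Ifngr2 beyond the spread of mice (adjusted p = 0.217), and the other 4 neighbouring pairs did (0.0104 to 0.0385). Among T cell clusters, Ifngr1 was at 429 ± 118 CPM in the Cd8a and Pdcd1 cells with most Ifng, against 1032 ± 218 CPM in regulatory T-like cells and 1374 ± 226 CPM in Tcf7 and Il7r cells, and among NK cells at 518 ± 124 CPM in the Gzmc to Gzmf cells, against 1162 ± 136 CPM in the Gzma cells.

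Irf1, the transcription factor, was highest in neutrophils at 550 ± 152 CPM, then in T cells at 295 ± 45.5 CPM (14 of 14 mice, exact sign-flip test, adjusted p = 0.000305). T cells were above NK cells (245 CPM, adjusted p = 0.000407), which did not differ from dendritic cells (247 CPM, 0.99) beyond the spread of mice, nor did these from monocytes and macrophages (217 CPM, 0.14). Without cells of a doublet score over 0.5, neutrophils stood at 915 ± 305.7 CPM of Irf1, 948 ± 413 CPM of Gbp2, 445 ± 260.2 CPM of Igtp, 300.9 ± 197 CPM of Ifngr1 and 19.5 ± 24.5 CPM of Iigp1, over 1.5 times away from the levels with these cells. Socs1, the feedback inhibitor, was between 22.0 and 44.0 CPM in all 6 classes, and no neighbouring classes differed beyond the spread of mice (adjusted p of 0.257 to 0.951).

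The 4 GTPase genes had their highest level in different classes. Gbp2 was highest in neutrophils at 558 ± 159 CPM, above monocytes and macrophages (211 CPM) in 14 of 14 mice (exact sign-flip test, adjusted p = 0.00061), and lowest in NK cells (55.7 CPM), below T cells (93.0 CPM, 0.00122). Igtp was highest in neutrophils as well (271 CPM), above T cells (145 CPM, 0.00061), which were above monocytes and macrophages (101 CPM, 0.000916). Gbp4 did not differ between monocytes and macrophages (263 CPM), neutrophils (241 CPM) and T cells (223 CPM) beyond the spread of mice (0.206 and 0.639), and stromal or tumour cells were lowest (67.8 CPM, 0.00061). Iigp1 was highest in stromal or tumour cells at 193 ± 95.6 CPM, above monocytes and macrophages (126 CPM, 0.0234), and lowest in NK cells at 9.42 CPM, below neutrophils (54.9 CPM, 0.00153).

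Within the classes the response genes varied by cluster. Monocytes with Chil3 and Vcan held Gbp2 at 393 ± 76.0 CPM and Gbp4 at 419 ± 96.0 CPM, against 152 ± 21.3 CPM and 210 ± 47.0 CPM in the Arg1 and C1q macrophages. T cells with Il17a and Trdc held Gbp4 at 490 ± 164 CPM and Igtp at 348 ± 169 CPM, against 125 ± 49.0 CPM and 69.1 ± 39.6 CPM in Cd8a and Pdcd1 T cells. An unnamed cluster of 46 cells led by Ifit3 and Mx1, genes of the type I interferon response, held pooled levels of 1010 CPM of Gbp4, 514 CPM of Igtp and 479 CPM of Ifng. These clusters are described without a test.

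**Figure D2:**
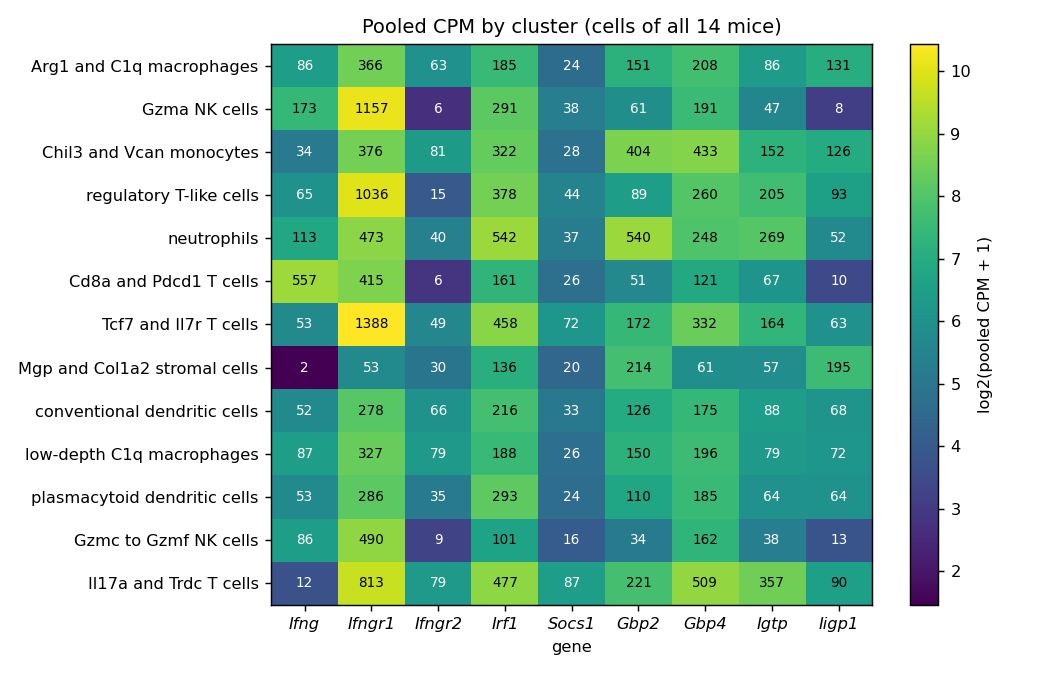
Level of each of the 9 genes in 13 clusters, pooled over the cells of 14 mice, with colour as log2(pooled CPM + 1) and the pooled CPM printed in each cell. Cd8a and Pdcd1 T cells have the highest Ifng (557 CPM) and, among T cell clusters, the lowest Ifngr1 (415 CPM).

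Whether the agents changed the 9 genes was tested by edgeR's quasi-likelihood test in all CD45+ cells and in 5 classes, over 8 comparisons that share mice. Here all CD45+ cells means every kept cell. These sums thus also hold the 547 cells with markers of stromal or tumour cells, at a median of 143140 reads per cell. None of the 9 genes passed an adjusted p of 0.05 in any of the 48 pairings of a set of cells and a comparison, and the comparisons of a set came from 1 fit. Nor did nearly any other gene: 0% of the 18410 genes tested in all CD45+ cells, and 0.00793% of 12615 in T cells for the antibody main effect (1 gene, Fos, a transcription factor gene of early activation). In T cells, minP1_PDL1 minus Control also had 1 gene called (0.00793% of 12615). At an unadjusted p under 0.05 the antibody main effect had 2 of the 9 genes in all CD45+ cells, where 8.41% of all genes had such a p, 0 in dendritic cells and 1 in each of the other 4 classes, where 4.80% to 7.03% of all genes had one. With DESeq2, 1 member was called in the antibody main effect (Ifng in NK cells) and 1 in minP1 minus Control (Iigp1 in neutrophils).

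Of the 9 genes, Ifng in NK cells had the smallest p in the antibody main effect. Ifng stood at 171, 165, 168 and 185 CPM in the minP1_PDL1 mice, 351, 157 and 181 CPM in the PDL1 mice, 114, 125.5, 132 and 84.0 CPM in the minP1 mice, and 130, 139 and 98.6 CPM in the Control mice. All 7 mice with the antibody (197 ± 68.5 CPM) were thus above all 7 without it (118 ± 19.9 CPM), a pattern that 0.0587% of the 11925 genes tested in NK cells showed in this direction. The antibody main effect was a log2 fold change of 0.75 (SE 0.17) with an adjusted p of 0.345 by edgeR and 0.00941 by DESeq2. Over all alternatives the fold change ran from 0.47 to 0.85 and the adjusted p from 0.00941 to 0.724. An exact permutation test within the strata of minP1, added after the data had been seen, gave a log2 difference of 0.72 with p = 0.00143, the smallest it can give, and an adjusted p of 0.206 over the 144 tests made of the 9 genes. With the top cell of each mouse left out the mice with the antibody still lay at 129 to 193 CPM and those without at 70.9 to 128 CPM (0.61, p = 0.00143), without PDL1 mouse 1 the difference was 0.54 (p = 0.00286), and within the Gzma cluster the groups overlapped (154 to 407 against 103 to 204 CPM, 0.50, exact p = 0.0586).

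The share of NK cells with an Ifng read moved the same way. In cells thinned to 10000 reads it was 26.0 ± 2.89% in the 7 mice with the antibody (20.2% to 28.6%) and 20.7 ± 2.47% in the 7 without (17.9% to 23.9%). The groups overlapped, and the stratified difference was 5.10 points (exact permutation test, p = 0.00286, adjusted p = 0.04 over 14 tests). The adjusted p was 0.16 to 0.20 with at least 3 reads per cell, without thinning, at 20000 reads or without cells of a high doublet score, and 0.06 to 0.10 without any 1 of the 3 Control mice, the 4 minP1 mice or PDL1 mouse 3. In T cells the share was 16.2 ± 5.19% with the antibody and 17.1 ± 5.07% without (-0.69 points, exact permutation p = 0.78). In monocytes and macrophages it ran from 9.02% to 21.7% with the antibody and from 8.33% to 14.4% without. In neutrophils it ran from 3.23% to 12.1% with and from 0% to 28.6% without, and neither class was tested for this share. The T cell level of Ifng was 265, 383, 132 and 157 CPM in minP1_PDL1 mice, 144, 175 and 388 CPM in PDL1 mice, 88.7, 361, 175 and 470 CPM in minP1 mice and 404, 270 and 578 CPM in Control mice, and the groups overlapped. The T cells of mice with the antibody averaged 235 ± 112 CPM and those of mice without it 335 ± 170 CPM (-0.49 on the log2 scale, exact permutation p = 0.266). The antibody difference of NK cells minus that of T cells was 1.21 on the log2 scale (exact permutation p = 0.0557), so a difference between the classes was not shown.

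Ifng in monocytes and macrophages stood at 141, 107, 109 and 68.8 CPM in minP1_PDL1 mice, 21.8, 65.6 and 65.8 CPM in PDL1 mice, 64.6, 53.0, 61.2 and 77.0 CPM in minP1 mice, and 38.4, 90.9 and 72.4 CPM in Control mice. The log2 fold change of minP1_PDL1 minus PDL1 was 1.07 (SE 0.36, edgeR adjusted p = 0.763). In minP1_PDL1 mouse 1, 1 cell held 58.7% of these reads.

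**Figure D3:**
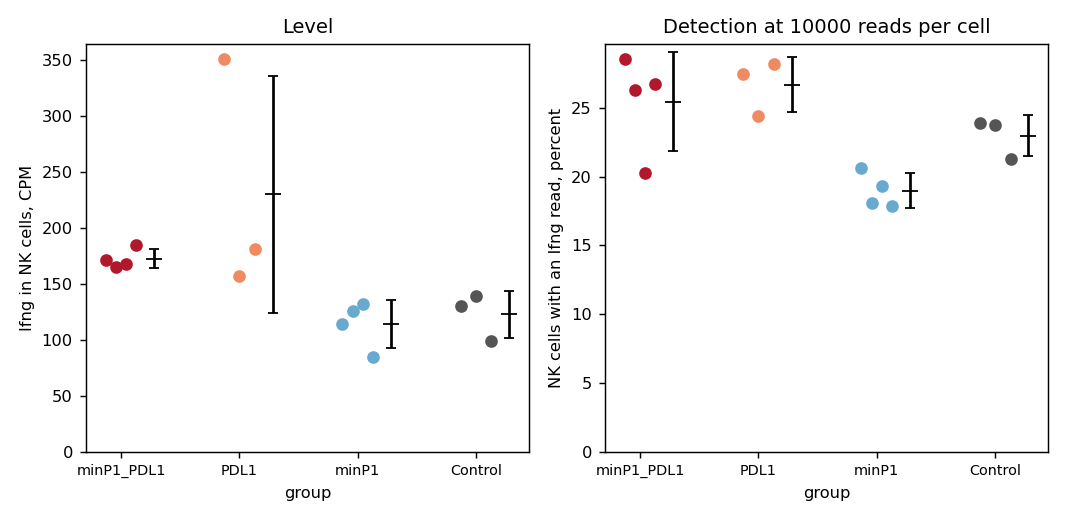
Ifng level in NK cells (left, CPM) and share of NK cells with an Ifng read after thinning to 10000 reads (right, percent), 1 point per mouse with the mean and SD of each group. At left the 7 mice with the antibody lie between 157 and 351 CPM and the 7 without between 84.0 and 139 CPM, and at right the groups overlap.

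None of the 6 response genes passed the test of the antibody main effect. Of 30 pairs of a response gene and a class, 24 lay above 0 and 3 had an unadjusted p under 0.05. The pairs share mice, and 48.3% (NK cells) to 51.7% (neutrophils) of all genes tested in a class lay above 0. Gbp2, Gbp4 and Irf1 lay above 0 in all 5 classes, and Igtp, Iigp1 and Socs1 in 3 of 5, with the lowest value at -0.30 for Iigp1 in dendritic cells. The pairs with such a p are given next. Igtp in T cells stood at 141, 170, 171 and 170 CPM in minP1_PDL1 mice, 138, 222 and 180 CPM in PDL1 mice, 154, 128.5, 135 and 90.8 CPM in minP1 mice, and 82.3, 135 and 118 CPM in Control mice. The groups with and without the antibody overlapped, with an antibody main effect of 0.53 (SE 0.15, adjusted p = 0.82 by edgeR). Gbp4 in monocytes and macrophages was 220, 316, 327 and 416.5 CPM in minP1_PDL1 mice, 207, 297 and 302.97 CPM in PDL1 mice, 214.5, 204, 244 and 247 CPM in minP1 mice, and 253, 224 and 202 CPM in Control mice (0.37, SE 0.13, adjusted p = 0.604), and again the groups overlapped. Over all CD45+ cells the antibody main effect was 0.35 for Igtp (SE 0.12, adjusted p = 0.449) and 0.33 for Gbp2 (SE 0.12, adjusted p = 0.471). Neutrophils, the class with the highest Gbp2 and Igtp, made up 10.3 ± 1.88% of the cells of the 7 mice with the antibody (7.21% to 12.6%) and 5.19 ± 1.70% of those of the 7 mice without (3.10% to 8.01%), and their part in these sums was not tested. Irf1 in neutrophils had 540, 542, 603 and 857 CPM in minP1_PDL1 mice, 709, 670 and 392 CPM in PDL1 mice, 483, 749, 432.5 and 498.5 CPM in minP1 mice, and 411, 306.5 and 511 CPM in Control mice (0.44, SE 0.19, adjusted p = 0.772).

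The wider pathway was read from 3 lists. Of 30 genes that interferon gamma induces, 28 lay above 0 in the antibody main effect over all CD45+ cells and 15 had an unadjusted p under 0.05, all 15 above 0, but none was called. Of all 18410 genes, 8.41% had such a p, and the neutrophil share given above moved with the antibody in the same sums. Their median log2 fold change was 0.24 and that of all 18410 genes -0.00, with 49.7% of them above 0. Among the genes with the smallest p were Gbp7 (0.33, adjusted p = 0.408) and Ciita, the regulator of MHC class II genes (0.71, 0.449). By class, those above 0 were 23 of 29 in T cells (median 0.13), 20 of 28 in NK cells (0.06), 23 of 30 in monocytes and macrophages (0.10), 19 of 30 in dendritic cells (0.07) and 22 of 29 in neutrophils (0.18). Of all genes tested in a class, 48.3% (NK cells) to 51.7% (neutrophils) lay above 0. In the minP1 main effect the list had 23 of 30 above 0 with a median of 0.08 over all CD45+ cells, where 51.9% of all genes lay above 0 with a median of 0.01. Of 18 signalling genes 15 lay above 0 with the antibody (median 0.13), with Irf9, a transcription factor of the interferon response, at the smallest p (0.35, SE 0.08, adjusted p = 0.207). Of 17 cytokines, receptors and factors that induce Ifng, 12 did so over all CD45+ cells (median 0.09), 6 of 14 in T cells (-0.03), 11 of 17 in monocytes and macrophages (0.07), 7 of 17 in dendritic cells (-0.04), 7 of 15 in neutrophils (-0.18) and 12 of 15 in NK cells (0.14). In NK cells the smallest p belonged to the receptor genes Il18rap (0.37, adjusted p = 0.496) and Il12rb1 (0.78, adjusted p = 0.564).

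**Figure D4:**
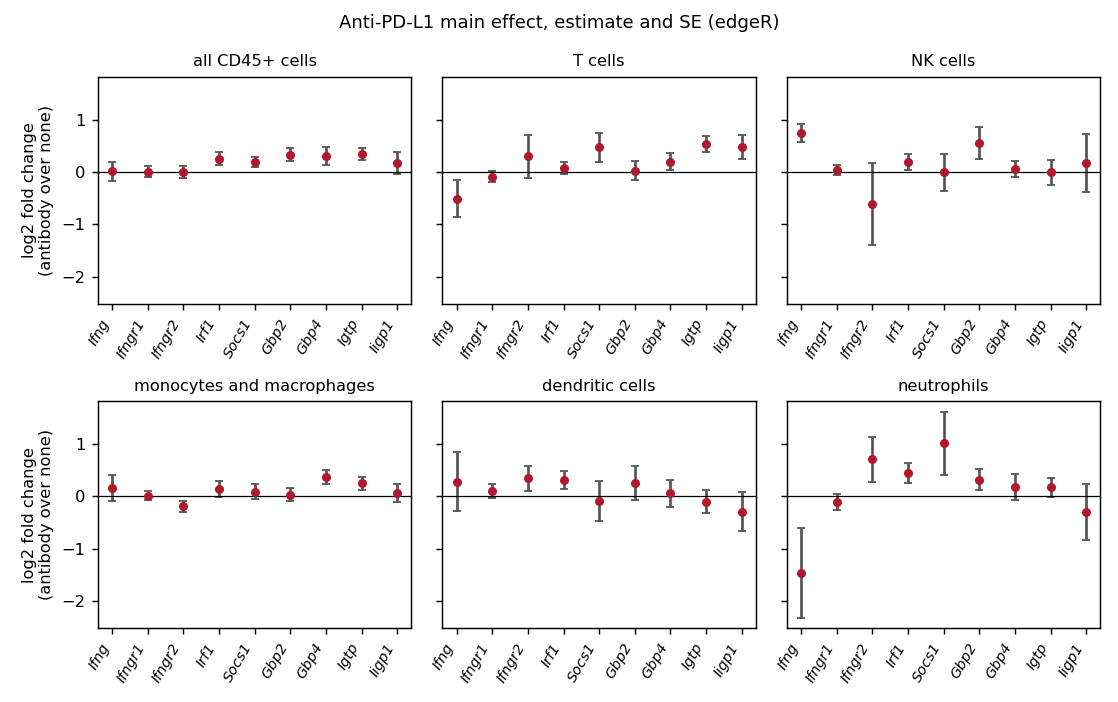
Antibody main effect on each of the 9 genes in all CD45+ cells and 5 classes, as the edgeR log2 fold change of mice with over mice without anti-PD-L1, with bars of 1 SE. Ifng in NK cells (0.75) lies farthest from 0 relative to its SE, and no estimate passed the adjusted threshold.

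None of the 9 genes was called in the minP1 main effect by edgeR. At an unadjusted p under 0.05 there was 1 in all CD45+ cells (Ifngr1, 0.23), 1 in T cells and 1 in neutrophils, and 0 in the other 3 classes, while 4.24% to 6.68% of all genes had such a p. Ifngr1 in T cells stood at 900.5, 715, 933 and 944 CPM in minP1_PDL1 mice, 552.5, 648 and 695 CPM in PDL1 mice, 1001, 877, 683.5 and 797 CPM in minP1 mice, and 619, 913 and 732.5 CPM in Control mice. Mice with the peptide averaged 856 ± 114 CPM (n = 8) and those without 693 ± 124 CPM (n = 6), the groups overlapped, and the effect was 0.31 (SE 0.10, adjusted p = 1.00 by edgeR). Iigp1 in neutrophils, of which a mouse gave 15 to 70 cells, stood at 22.5, 12.1, 37.0 and 4.48 CPM in minP1 mice and 153, 179 and 81.0 CPM in Control mice. For this gene minP1 minus Control was -2.78 (SE 0.77, adjusted p = 0.395 by edgeR and 0.0452 by DESeq2). That value turned to 4.97 without cells of a high doublet score and to 1.04 without the cell filter, so no direction is given. Ifngr2 and Socs1, like the other genes of the set, were not called by edgeR in any class or treatment comparison.

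Cells with and without an Ifng read were compared within T cells and within NK cells, and the T cell and NK cell comparisons were not tested against each other. Within each mouse, T cells with an Ifng read (272 cells, 9 to 30 per mouse) were set against T cells without one (1366 cells, 67 to 150). Thinning to 10000 reads served only to label the cells by Ifng, and the counts that were summed and compared were unthinned. Ifngr1, the ligand-binding chain, ran from 196 to 679 CPM with a median of 417 in cells with an Ifng read and from 635 to 1152 CPM with a median of 948 in cells without. The ranges overlapped, but it was lower in the cells with Ifng in all 14 mice, by -1.15 on the log2 scale (SE 0.12, edgeR with the mouse as a block, adjusted p = 9.8e-07). Without the Cd8a and Pdcd1 cluster, in the 7 mice with enough cells, Ifngr1 was at -0.34 and was not called (edgeR adjusted p = 0.424), nor was any other gene of the set (0.145 to 0.958). Of the 8986 genes tested, 5.95% were lower and 2.43% were higher, and 7 of the 8 other genes of the set, all but Socs1, were among the lower ones. The median of all genes tested was -0.33.

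Among the response genes, Irf1 had medians of 168 CPM with and 325 CPM without an Ifng read (86.3 to 270 against 275 to 453) and was lower in all 14 mice (-0.97, edgeR adjusted p = 1.24e-05). Gbp4 had medians of 133 CPM with and 255 CPM without (-0.92, lower in 13 of 14 mice, adjusted p = 0.00111) and Igtp 78.0 CPM with and 157 CPM without (-1.08, 13 of 14, adjusted p = 0.0115). Gbp2 had medians of 47.9 CPM with and 113 CPM without (-1.43, 11 of 14, adjusted p = 0.0155), and these 3 overlapped in range. Iigp1 (median 1.68 CPM with and 68.2 CPM without, adjusted p = 0.00026) and Ifngr2 (2.29 CPM with and 19.4 CPM without, adjusted p = 0.0133) were lower too, and their fitted folds are not given because the levels with Ifng are near 0. Socs1 did not pass (27.3 CPM with and 46.5 CPM without, -1.01, adjusted p = 0.128).

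Other genes differed in the same split of T cells. Among those higher with Ifng were Nkg7 (1.42), Cd8a (1.55) and Cd8b1, the NK receptor genes Klrc1 (1.75) and Klrd1, Anxa2 and Tmsb4x, and among those lower were Il7r, the interleukin 7 receptor gene (-2.02), the chemokine receptor gene Cxcr4 (-2.09), Samhd1 (-1.68), Zfp36l1 (-1.50), Btg1 and Ctla4, an inhibitory receptor gene (-1.09). Of 28 genes tested of the induced list, 15 were lower and 0 higher (median -1.05). Of 17 signalling genes 7 were lower, among them Jak1 and Jak2, and 2 were higher, Irf8 and Ptpn6. Of 12 inducing genes 1 was higher, the interleukin 18 receptor chain gene Il18rap, and 1 lower, Runx3. Depth and cluster moved with the split. The median cell had 39575 reads with Ifng and 19843 without, a difference that the summed counts keep. The Cd8a and Pdcd1 cluster held 75.4% of the T cells with Ifng.

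**Figure D5:**
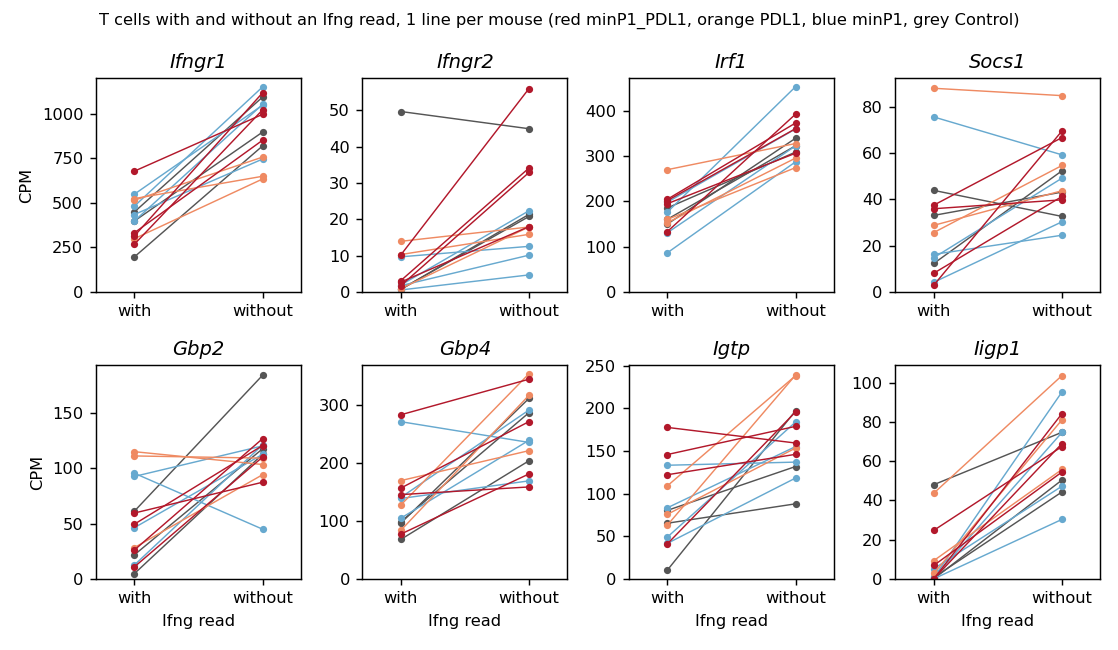
Level (CPM) of the 8 other genes in T cells with and without an Ifng read among 10000 thinned reads, from unthinned counts summed per mouse, 1 line per mouse. Ifngr1 and Irf1 are lower with an Ifng read in all 14 mice, while Socs1 goes either way.

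Within the Cd8a and Pdcd1 cluster alone, 205 cells with Ifng were set against 293 without. Depth moved with this split too, at a median of 48848 reads per cell with Ifng and 32208.5 without, and its part was not tested. Ifngr1 ran from 178 to 567 CPM with a median of 268 in cells with Ifng and from 254 to 887 CPM with a median of 569 in cells without, and was lower in 13 of 14 mice (-0.92, SE 0.17, edgeR adjusted p = 0.0166). It was 1 of 3 genes lower (0.0437% of 6868), with P2ry10, a G protein-coupled receptor gene, and Cxcr4, while Nkg7 and Rgs16, a regulator of G protein signalling, were higher (0.0291%). Gbp2 (-1.32, SE 0.66), Irf1 (-0.58, SE 0.27), Gbp4 (-0.48, SE 0.36), Igtp (-0.26, SE 0.46) and Socs1 (0.36, SE 0.78) did not pass there (adjusted p of 0.68 to 0.987), and Ifngr2 and Iigp1 were not tested for low counts. The Ifngr1 call was lost without Control mouse 3, minP1 mouse 4, PDL1 mouse 3 or minP1_PDL1 mouse 2 (adjusted p of 0.0596 to 0.0731), and without each of the last 3 no gene was called. In NK cells, with 17 to 28 cells with Ifng per mouse and 45 to 117 without, 0% of 8165 genes were called by edgeR, 673 had an unadjusted p under 0.05, and DESeq2 called 227, which included none of the 7 genes of the set that were tested. Ifngr1 in NK cells had medians of 987 CPM with and 924 CPM without an Ifng read.

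No correlation over mice between Ifng in lymphocytes and its response genes in monocytes and macrophages passed the test, and other myeloid classes were not tested. Over the 14 mice, the level of Ifng in T and NK cells together was correlated with each of the 6 response genes in monocytes and macrophages on the log2 scale. Pearson's r ran from -0.27 for Iigp1 to 0.25 for Igtp and Spearman's rho from -0.31 to 0.30, with permutation p values that after adjustment over 6 genes were 0.796 to 0.933 for r and 0.778 to 0.915 for rho. With the 2 mice farthest from the median of Ifng left out, r ran from -0.36 for Irf1 to -0.01 for Igtp.

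Over the 13 cell classes and clusters with a mean level, the 5 genes whose log2 pattern was most like that of Ifng were Lypla2 (r = 0.898), 1810041H14Rik (0.893), Samd10 (0.884), Prkch (0.879), a protein kinase C gene, and Med14 (0.872). These are correlations over cell types that share the same mice and libraries, and they are given as a description.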

How the data were processed

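BD Rhapsody libraries of CD45+ tumour cells carried 1 hashtag antibody per mouse, per the labels. The authors deposited 1 table of whole-number read counts for 22836 genes in 8262 barcodes. Per the submitters' processing notes, cutadapt 2.10, Bowtie2 2.3.4.1 and Seurat 2.3.4 were used on mm10. Nonzero entries had a median of 10 reads, so the counts are reads not collapsed by molecule, and every test took the mouse as the unit. The labels speak of separate experimental runs but give no run for a mouse, and all barcodes carry 1 library name. Whether runs differed between the groups could therefore not be checked.

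Barcodes named doublet (141) or lacking a hashtag (6) were not used. Of 8115 barcodes of mice, 383 with over 25% of reads in 36 mitochondrial genes were removed, leaving 7732; the study states 7613 under a filter not given in the sources used here. Total reads per mouse were 26007834 to 51230461. Cells were clustered (scanpy 1.11.5, 2000 variable genes without the 9 genes, 30 components, 20 neighbours, Leiden resolution 1), and a cluster was named with at least 3 markers among its top 50 genes. Remaining doublets were not removed: 24.3% of kept cells, and 68.9% of simulated doublets, had a score (share of simulated doublets among neighbours) over 0.5.

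Reads were summed per mouse and class of 10 or more cells, and sums were tested with edgeR 4.0.16 in R 4.3.3 (quasi-likelihood, robust, TMM, filterByExpr, 4 groups in 1 fit, Benjamini-Hochberg over all genes, called at an adjusted p under 0.05), checked on simulated counts. CPM is not divided by gene length, so genes are not compared with each other. Classes were compared within mice on log2(CPM + 1), adjusted over the 5 neighbouring pairs of a gene. Exact permutations moved mice within the strata with and without minP1 (1400 arrangements). Cells of 10000 or more reads were labelled as with or without an Ifng read among 10000 thinned reads. Their unthinned counts were summed per mouse and compared by edgeR with the mouse as a block. All tests were two-sided.

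The 9 genes, the lists and the tests were chosen with earlier results of these data known. Besides the 9 genes, the text names the 5 genes most correlated with Ifng over classes, the genes of a list with the smallest p, up to 12 genes in each direction between cells with and without an Ifng read, and genes that a count of 5 or fewer rests on. Alternatives were DESeq2 1.42.0, RLE scaling, other filters on genes and cells, resolution 0.5, clustering with the 9 genes, no cells of a high doublet score, the replicate block and each mouse left out. The exact tests of levels, the splits by cluster and the levels without each top cell were added after the data had been seen. A gene of the lists counts in them but is not reported here by name.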

Additional observations from a re-analysis of the deposited data

Results flagged for a closer look

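In 6 of the 108 groups of 4 mice examined (9 genes, 6 classes), 1 mouse lay far outside the range of the other 3, and chance gives about 1 such group in 20. Igtp in T cells was 141.02 CPM in minP1_PDL1 mouse 1, against 170 to 171 CPM in the other 3 mice of its group. Ifngr1 in NK cells was 1310.1 CPM in minP1_PDL1 mouse 3, against 904 to 971 CPM. Iigp1 in NK cells was 19.69 CPM in minP1 mouse 1, against 5.99 to 7.64 CPM. In dendritic cells, Ifng was 86.314 CPM in minP1_PDL1 mouse 3 (others 32.1 to 39.8 CPM), Socs1 was 43.125 CPM in minP1 mouse 2 (others 20.98 to 24.1 CPM) and Gbp4 was 72.194 CPM in minP1_PDL1 mouse 1 (others 222 to 242 CPM). None of these groups gave a call.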

How the results depend on the processing

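The 9 genes had 0 calls in all 8 treatment comparisons under every alternative run except DESeq2, which called 1 in the antibody main effect (Ifng in NK cells) and 1 in minP1 minus Control (Iigp1 in neutrophils). Iigp1 in neutrophils reversed without the cell filter and without cells of a doublet score over 0.5: to 1.04 and 4.97 in minP1 minus Control, 0.78 and 6.66 in minP1_PDL1 minus Control, 0.64 and 2.53 in the minP1 main effect, and -0.80 and -4.88 in the interaction. The cause was not tested.

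Ifng in NK cells minus T cells was -0.63 (adjusted p = 0.0643) at resolution 0.5 and -0.90 to -0.60 with 1 mouse left out. The share of Ifng reads in NK and T cells together, 49.5%, was 78.1% without cells of a high doublet score, which leaves out most Arg1 and C1q macrophages with Ifng. The antibody difference in the share of NK cells with an Ifng read was 4.15 points with at least 3 reads, 4.32 without thinning, 6.89 at 20000 reads and 4.96 without cells of a high doublet score, and 4.58 to 5.97 with 1 mouse left out. Genes called between NK cells with and without an Ifng read numbered 227 by DESeq2, 1 at 3 or more reads, and 0 to 1 with 1 mouse left out. In T cells they numbered 753, and 1916 by DESeq2 (752 of the 753 shared), 5 within the Cd8a and Pdcd1 cluster, 26 without that cluster (7 mice) and 577 to 758 with 1 mouse left out. Within the cluster the count ran from 0 to 13 with 1 mouse left out and was 155 by DESeq2. The induced list had 26 to 29 of its genes above 0 in the antibody main effect over all CD45+ cells in 24 alternatives. With NK cells alone as the source of Ifng, the correlation with the response genes of monocytes and macrophages passed for 0 of 6 genes (r of -0.12 to 0.37, adjusted permutation p = 0.892).

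With the replicate number as a block, 0 of the 9 genes were called in each of the 8 comparisons, and Ifng in NK cells had an antibody main effect of 0.73 (edgeR adjusted p = 0.602). Same-numbered mice did not deviate together (median correlation 0.04, -0.09 to 0.35, in all CD45+ cells, 5 of 19 pairs over 0.1), so the numbers were not taken to pair the mice. Iigp1 and Ifngr2 were low in NK cells, at 9.42 and 6.25 CPM, and the part of depth in this was not tested.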
